A study of Mus musculus with 8 samples.

Results

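The genes described here are components of the Wnt signalling pathway in mouse pancreatic buds: ligands, receptors, inhibitors, intracellular regulators and target genes. The list held 44 genes, and a gene was included when a probe set of the array carried its symbol and no other in the platform annotation. That gave 43 genes of the 19938 genes measured in this way. Tcf7, the remaining gene of the list, had no such probe set and was not analysed here. For Wnt4, which had 2 probe sets, the one with the highest mean over the 8 arrays was used.

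Total RNA of 4 pools was measured on the mouse gene 1.0 ST array of Affymetrix, with 2 arrays per pool, the second being a technical repeat. The VEGF pool held fresh pancreatic buds of 3 embryos at e12.5 that carried both Pdx1-tTA and TET-VEGF. In Pdx1-tTA a tetracycline-controlled transactivator is driven by Pdx1 sequences, and it switches on TET-VEGF, a VEGF transgene. The control pool held fresh buds of 3 littermates with Pdx1-tTA alone, so that both pools carry the transactivator. The other two pools came from wild-type buds that were explanted at e12.5 and cultured for 2 days with VEGFR2i, an inhibitor of VEGF receptor 2, or with vehicle, with 5 pooled per condition. Each condition is thus 1 pool, and values over the 2 arrays of a pool measure hybridization error only. No p-value for a condition can be had from this design, and none is given.

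Wnt ligands are secreted, lipid-modified proteins that bind Frizzled receptors together with a co-receptor. With Lrp5 or Lrp6 as co-receptor they stop the Axin-containing complex from destroying beta-catenin, which then joins TCF/LEF factors at target genes. With Ror1 or Ror2 they act without beta-catenin, on cell polarity and movement. R-spondins raise the response by drawing the ubiquitin ligases Rnf43 and Znrf3 away from Frizzled receptors. In the developing pancreas Wnt signals pass between the mesenchyme and the epithelium and influence growth and the choice of organ identity in the foregut.

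Expression is on the log2 scale as deposited, and a difference is that of 2 pool means, with its range over the 4 pairs of arrays in brackets. A gene was called higher or lower when the pool means were 1.5-fold or more apart (0.58 in log2 units) and the arrays of the pools did not overlap. Between the 2 arrays of a pool no member differed by 1.5-fold. The largest such gap was that of Fzd9 in the VEGF pool, 0.54, and the median gap of the members lay between 0.04 and 0.08 in the 4 pools. Of the 43 members, 9 had mean levels below 5 in all 4 pools, where the arrays respond little to a change, namely Wnt6, Wnt11, Fzd9, Fzd10, Sfrp4, Sfrp5, Dkk1, Wif1 and Lgr5. Levels of different genes were not set against each other, since each probe set has its own response.

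Markers of the cell types in the pools were not the same in both members of a pair. Of the epithelial and acinar markers, Pdx1, Sox9, Cdh1 and Cpa1 read 6.26 or more on every array. The acinar markers Cpb1, Cela3b and Sycn read 2.95 to 4.21 on the bud arrays. The tissue label itself was not tested. Between the VEGF and control pools, 9 of 9 epithelial markers had negative differences (median -0.64, 5 called lower). In the same comparison 12 of 12 endothelial markers had positive differences (median 0.53, 4 called higher), and 5 of 8 mesothelial (median 0.66) and 5 of 7 erythroid markers were called higher. Endocrine markers were furthest apart, with 8 of 10 called lower (median -1.55), beside 4 of 9 acinar (median -0.16) and 3 of 6 neural crest markers (median -0.57). The mean level of the endothelial list was 7.99 to 8.03 on the VEGF arrays and 7.43 to 7.45 on the control arrays. In the explants the endothelial markers went against the labels: 12 of 12 had positive differences, and 11 were called higher in the pool labelled VEGFR2i. The median difference was 2.13, with a mean list level of 6.82 on both arrays against 4.57 to 4.65 with vehicle. Leukocyte markers were also higher there, 7 of 8 called with a median of 0.97, and acinar markers lower, 6 of 9 called with a median of -0.91. Epithelial markers were lower on both arrays for 7 of 9, with none called and a median of -0.17. All directions in the explants follow the labels as they stand. In such bulk RNA, fewer cells of a type and less RNA per cell cannot be told apart.

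In the fresh buds, the only member past the 1.5-fold rule was Rspo3, which was higher in the VEGF pool. Members called thus numbered 1 of 43, or 2.33%, against 1.48% of all genes, of which 0.552% were higher and 0.933% lower. That share is near the background. Rspo3 encodes R-spondin 3, a secreted amplifier of Wnt signalling that embryos need for the vessels of the placenta. Its arrays read 6.13 and 6.34 in the VEGF pool and 5.47 and 5.27 in the control pool, a difference of 0.86 [0.66, 1.06], or 1.81-fold. Both VEGF arrays thus lay clearly above both control arrays, although the arrays of each pool differed by about 0.2. In the same comparison 7 of 8 mesothelial, 12 of 12 endothelial and 9 of 10 mesenchymal markers had positive differences, and 9 of 9 epithelial markers negative ones. The part of these cell types in the Rspo3 value was not tested. In the explants Rspo3 stood at 5.27 and 5.18 with the label VEGFR2i and at 5.04 and 5.08 with vehicle, a difference of 0.16 [0.11, 0.22]. The difference between these comparisons was not tested.

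**Figure D1:**
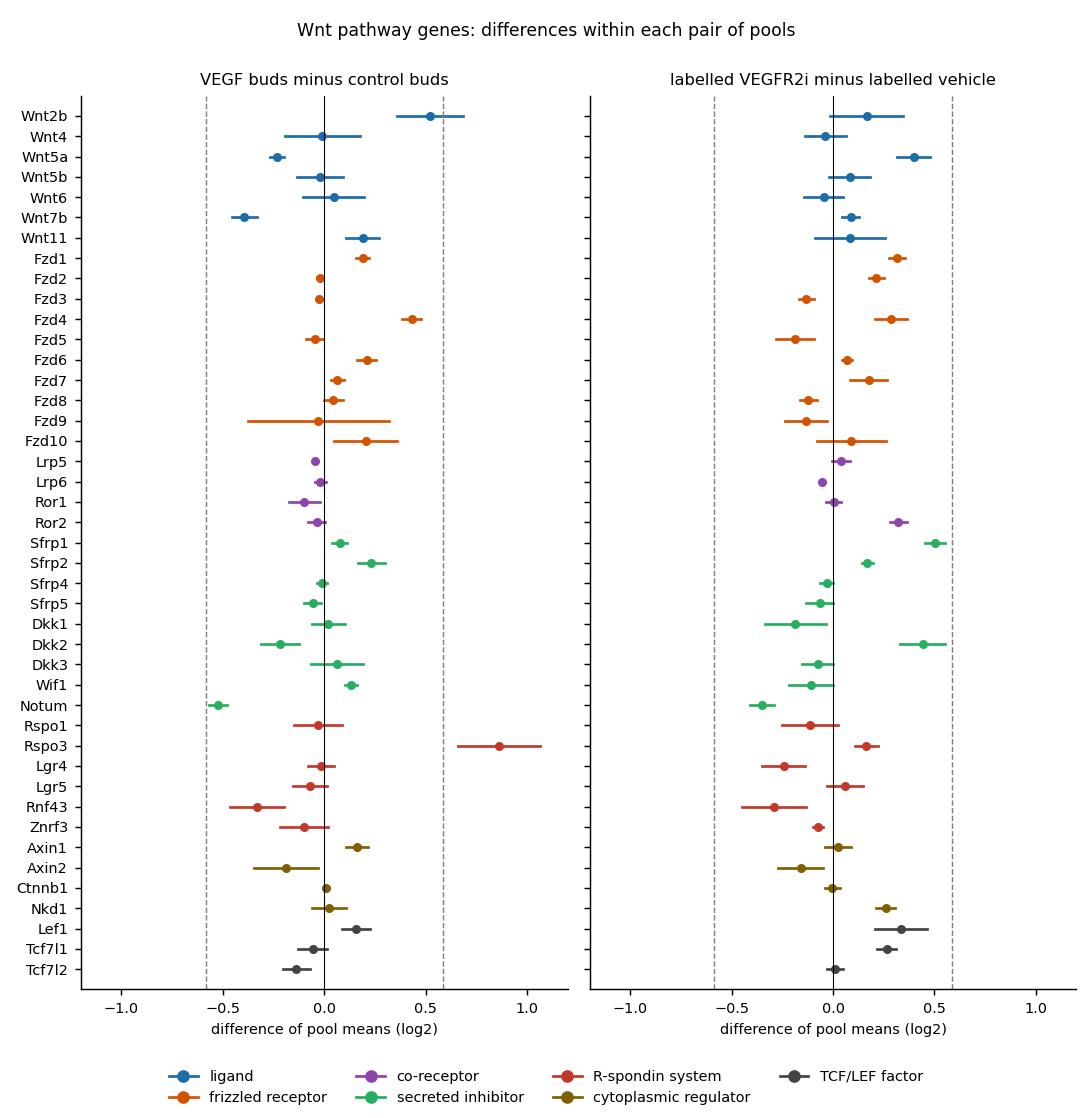
Differences of pool means on the log2 scale for all 43 Wnt pathway genes, VEGF buds minus control buds on the left and the explant pool labelled VEGFR2i minus the pool labelled vehicle on the right. Points are differences, bars span the 4 pairs of arrays, colours mark the role of the gene and dashed lines mark 1.5-fold; only Rspo3 in the buds, at 0.86, lies past a dashed line.

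Among the 7 ligands, Wnt2b and Wnt7b differed most between the bud pools, in opposite directions. Wnt2b, a foregut ligand of the beta-catenin branch, read 6.92 and 6.70 in the VEGF pool and 6.34 and 6.24 in the control pool, a difference of 0.52 [0.36, 0.68]. It lay short of the 1.5-fold rule with all arrays and passed it, at 0.63, when the second VEGF array was left out. The part of the cell types in the Wnt2b value was not tested. Wnt7b, a ligand of the pancreatic epithelium, read 6.05 and 6.12 in the VEGF pool against 6.46 and 6.51, a difference of -0.39 [-0.46, -0.33]. It was thus lower in the pool in which all 9 epithelial markers were lower; the part of those cells in the Wnt7b value was not tested. The ligand Wnt5a, which acts mainly through Ror receptors, differed by -0.23 [-0.27, -0.20], at 8.36 against 8.59. Wnt11, also a ligand of the branch without beta-catenin, differed by 0.19 near the dim end of the range. The arrays of the pools overlapped for Wnt4, Wnt5b and Wnt6.

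Frizzled receptors, which carry the ligand-binding domain, differed by -0.05 to 0.43. Fzd4 had the largest difference of the 10, and it is the receptor through which the ligand Norrin shapes retinal vessels. Its arrays read 7.29 and 7.21 in the VEGF pool and 6.82 and 6.83 in the control pool, a difference of 0.43 [0.39, 0.47], or 1.35-fold. It stood higher where the median differences of endothelial (0.53), mesothelial (0.66) and erythroid markers (1.015) were positive too. In the explants Fzd4 differed by 0.29, beside an endothelial median of 2.13. The part of any of these cell types in the Fzd4 values was not tested. Fzd6 (0.21), Fzd10 (0.20), Fzd1 (0.19) and Fzd7 (0.06) also had both VEGF arrays above both control arrays. Fzd2, Fzd3 and Fzd5 had both arrays lower, by 0.05 or less, and Fzd8 and Fzd9 overlapped. Of the co-receptors, Lrp5 and Lrp6 differed by -0.04 and -0.02, and Ror1 and Ror2 by -0.10 and -0.04.

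Wnt2b and Fzd4 stood higher together, and Axin2 is the most used readout of the beta-catenin branch, so the bases upstream of their transcription starts are shown for these 3 genes. The sequences are those of RefSeq in the build GRCm38.p6, 250 bases each, written 5′ to 3′ along the gene. They come from chr3:104961710-104961959 on the minus strand for Wnt2b, chr7:89404116-89404365 on the plus strand for Fzd4 and chr11:108920099-108920348 on the plus strand for Axin2.
Wnt2b: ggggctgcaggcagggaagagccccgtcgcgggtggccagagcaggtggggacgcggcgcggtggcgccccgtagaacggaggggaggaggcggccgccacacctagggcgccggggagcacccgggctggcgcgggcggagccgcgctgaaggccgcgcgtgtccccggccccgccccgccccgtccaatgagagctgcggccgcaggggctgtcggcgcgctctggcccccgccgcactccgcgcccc
Fzd4: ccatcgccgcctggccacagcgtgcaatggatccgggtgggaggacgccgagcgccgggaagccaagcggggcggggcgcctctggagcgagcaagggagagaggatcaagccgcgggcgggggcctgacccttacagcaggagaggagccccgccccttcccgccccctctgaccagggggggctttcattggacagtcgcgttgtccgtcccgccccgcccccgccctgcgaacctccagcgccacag
Axin2: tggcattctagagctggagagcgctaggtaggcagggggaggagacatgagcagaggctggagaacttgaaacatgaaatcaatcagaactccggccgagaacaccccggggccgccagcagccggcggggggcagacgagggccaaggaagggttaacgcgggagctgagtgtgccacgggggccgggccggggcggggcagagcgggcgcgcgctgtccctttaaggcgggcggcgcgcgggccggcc

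These windows were searched on both strands for the TCF/LEF motif in its forms CTTTGAA and CTTTGAT, where matches on opposite strands can overlap. Neither form is in the 3 windows shown. Of the 44 listed genes, 28 have a start in the RefSeq promoter table, and 3 of these, or 10.7%, hold a match in the 250 bases upstream of a start. The share over all 27025 genes of the table was 8.63%. The other 16 listed genes, with Rspo3 and Notum among them, have no start in that table and were not searched. The matches are shown in capitals with their surroundings, 30 bases each, from chr19:30549595-30549624 on the minus strand for Dkk1, chr7:98835050-98835079 on the plus strand for Wnt11 and chr6:119449439-119449468 on the minus strand for Wnt5b. For Wnt11 the capitals are the reverse complement of the motif.
Dkk1: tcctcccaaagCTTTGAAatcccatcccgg
Wnt11: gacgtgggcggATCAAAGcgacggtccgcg
Wnt5b: agtaagtctctCTTTGATctgctccctgtc
None of these 3 genes was called in either comparison. A match is a run of letters and no evidence of binding.

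Of the 9 secreted inhibitors, Notum was the furthest apart in the buds. Notum is an enzyme that removes the lipid of Wnt ligands and is itself a target of the pathway. It read 4.14 and 4.06 in the VEGF pool and 4.62 on both control arrays, a difference of -0.52 [-0.57, -0.48], or 1.44-fold, just short of the rule and at a low level. Sfrp2, a soluble Frizzled-like decoy, had a difference of 0.23 [0.17, 0.30], at 8.19 against 7.96. Dkk2, which blocks Lrp co-receptors, differed by -0.22 [-0.31, -0.12]. Sfrp1 read 10.79 and 10.72 against 10.68 on both control arrays, a difference of 0.08. The remaining 5 inhibitors, Sfrp4, Sfrp5, Dkk1, Dkk3 and Wif1, differed by 0.13 or less in size and had levels below 5 in both bud pools.

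None of the other 5 genes of the R-spondin system passed the 1.5-fold rule with Rspo3. Rnf43, a ligase that removes Frizzled receptors and a target of the pathway, read 5.64 and 5.85 in the VEGF pool and 6.10 and 6.04 in the control pool, a difference of -0.33 [-0.47, -0.20]. Znrf3, its close relative, differed by -0.10 [-0.22, 0.02]. The R-spondin receptors Lgr4 and Lgr5 differed by -0.02 and -0.07, and the ligand Rspo1 by -0.03, all with overlapping arrays.

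Of the 8 established targets of the beta-catenin branch 7 were measured, and 5 of them had negative differences between the VEGF and control pools, with a median of -0.10. Axin2, a scaffold of the destruction complex that the pathway induces, read 6.31 and 6.09 against 6.43 and 6.34, a difference of -0.19 [-0.35, -0.03]. Lef1, a nuclear partner of beta-catenin, had the opposite sign at 0.16 [0.09, 0.22], with 6.06 on both VEGF arrays against 5.97 and 5.84. Nkd1, an inhibitor of the signal carrier Dishevelled, differed by 0.02, and Lgr5 was at about 3.3 in both pools. Thus Axin2, Notum and Rnf43 were lower on both VEGF arrays, Lef1 was higher, and Nkd1, Znrf3 and Lgr5 overlapped. Over all genes, the arrays of the bud pools did not overlap for 45.3%, and for 55.3% of those with a mean level of at least 5 in 1 pool. The transcript of beta-catenin itself, Ctnnb1, was at 11.18 against 11.17. Of the other TCF factors, Tcf7l2 differed by -0.14 and Tcf7l1 by -0.06, and the scaffold Axin1 by 0.16.

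Over all 43 members, the bud comparison gave 19 positive and 24 negative differences with a median of -0.02, beside a median of 0.00 over all genes. The median size of a difference was 0.07 for the members and 0.06 for all genes. The arrays of the pools did not overlap for 26 members, 13 higher and 13 lower, or 60.5% of them, against 45.3% of all genes (23.7% higher, 21.6% lower). Of the 34 members with a mean level of at least 5 in 1 pool 64.7% did not overlap, against 55.3% of all genes at that level. At a size of 1.3-fold (0.38) with no overlap, 5 members were apart, Rspo3, Wnt2b and Fzd4 higher and Notum and Wnt7b lower. That is 11.6% of the 43 members, against 3.86% of all genes (1.75% higher, 2.12% lower). At a mean level of at least 5 in 1 pool it was 14.7% of the 34 members, against 6.47% of all genes. The array values of members at least 1.3-fold apart are shown by a choice made after the values were seen.

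**Figure D2:**
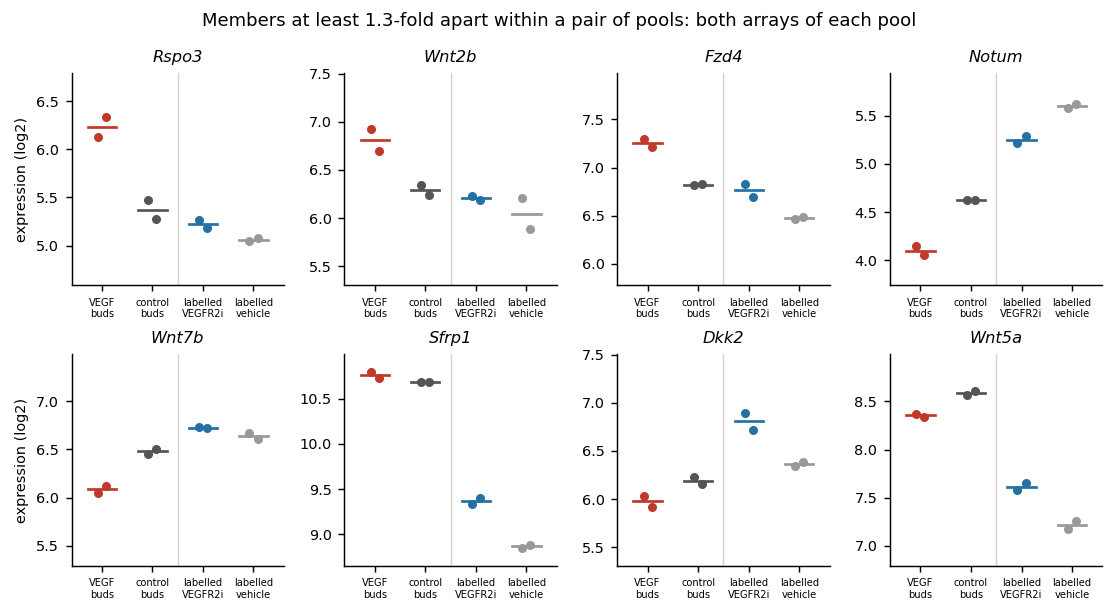
Expression on the log2 scale of the 8 Wnt pathway genes that differed by at least 1.3-fold within the buds or within the explants, in all 4 pools. Points are the 2 arrays of a pool, bars their mean, and a grey line separates fresh buds from explants; Rspo3, Wnt2b and Fzd4 are highest in the VEGF buds, and Notum is lowest there, at 4.14 and 4.06.

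In the explants, none of the 43 members passed the 1.5-fold rule, beside 2.19% of all genes (1.82% higher, 0.371% lower). The endothelial cadherin Cdh5 differed by 4.10 between the same pools. The largest difference of a member was that of Sfrp1, a secreted Frizzled-like inhibitor. It read 9.34 and 9.41 in the pool labelled VEGFR2i and 8.85 and 8.89 with vehicle, a difference of 0.50 [0.45, 0.55], or 1.42-fold. Dkk2 followed with 6.90 and 6.72 against 6.34 and 6.39, a difference of 0.44 [0.33, 0.55]. Wnt5a, the mesenchymal ligand, read 7.58 and 7.65 against 7.17 and 7.26, a difference of 0.40 [0.32, 0.48]. For these 3 genes the arrays of the pools were well apart, and 3 of 43 members, or 6.98%, reached 1.3-fold, against 4.61% of all genes (3.37% higher, 1.24% lower). Of the 34 members with a mean level of at least 5 in 1 pool 8.82% did so, against 7.21% of all genes at that level. Mural cell markers, of which 6 of 8 were called higher in the pool labelled VEGFR2i (median 0.87), and mesenchymal markers, with none of 10 called and a median of 0.09, were measured in the same arrays. Their part in the values of Sfrp1, Dkk2 and Wnt5a was not tested.

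Several receptors had both arrays higher in the pool labelled VEGFR2i by smaller amounts. Ror2, a co-receptor for Wnt5a, differed by 0.32 [0.28, 0.36], at 8.45 against 8.13, while its relative Ror1 differed by 0.00. Fzd1 differed by 0.32, Fzd4 by 0.29 [0.21, 0.36], Fzd2 by 0.21, Fzd7 by 0.18 and Fzd6 by 0.07. Fzd5 (-0.19), Fzd3 (-0.13), Fzd9 (-0.13) and Fzd8 (-0.12) had both arrays lower, and Fzd10 overlapped. Lrp5 and Lrp6 differed by 0.04 and -0.05. Among the ligands only Wnt5a and Wnt7b (0.09) had arrays that did not overlap. Wnt7b thus differed by -0.39 in the buds and 0.09 in the explants; that contrast was not tested.

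The established targets were split in the explants as well. Notum read 5.22 and 5.29 in the pool labelled VEGFR2i and 5.58 and 5.63 with vehicle, a difference of -0.35 [-0.41, -0.29]. Rnf43 differed by -0.29 [-0.45, -0.14], with 6.65 and 6.51 against 6.78 and 6.96. Axin2 read 6.49 and 6.56 against 6.76 and 6.61, a difference of -0.16 [-0.27, -0.05], and Znrf3 differed by -0.08. Lef1 and Nkd1 went the other way: Lef1 read 5.78 and 5.61 against 5.40 and 5.32, a difference of 0.34 [0.21, 0.46], and Nkd1 read 7.45 and 7.43 against 7.22 and 7.14, a difference of 0.26 [0.21, 0.30]. The arrays of Lgr5 overlapped. None of these values reached 1.5-fold. Axin2, Rnf43, Notum and Lef1 had the same sign in the buds and in the explants, without overlap in either. Znrf3 and Nkd1 also had the same sign in both, but overlapped in the buds, and Lgr5 had opposite signs. In the explants the arrays did not overlap for 51.0% of all genes, and for 61.4% of those with a mean level of at least 5 in 1 pool. The share of all genes with the same sign and no overlap in both comparisons was not computed. The VEGF pool and the pool labelled VEGFR2i had higher endothelial markers (medians 0.53 and 2.13) and lower epithelial (-0.64 and -0.17) and acinar markers (-0.16 and -0.91) than their counterparts. The part of any of these in the values of the targets was not tested. Tcf7l1, often a repressor, differed by 0.26 [0.22, 0.31] in the explants, while Tcf7l2, Axin1 and Ctnnb1 overlapped.

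Among the remaining inhibitors and R-spondin genes of the explants, Lgr4 differed by -0.24 [-0.35, -0.14], Dkk1 by -0.19 and Sfrp2 by 0.17 [0.14, 0.20], each without overlap. Sfrp2 was thus higher on both arrays in the VEGF pool and in the pool labelled VEGFR2i, by less than 1.5-fold. Dkk2 had opposite signs in the 2 comparisons, -0.22 and 0.44, and that contrast was not tested. Rspo1, Wif1, Dkk3, Sfrp4 and Sfrp5 had overlapping arrays and differed by 0.11 or less in size.

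**Figure D3:**
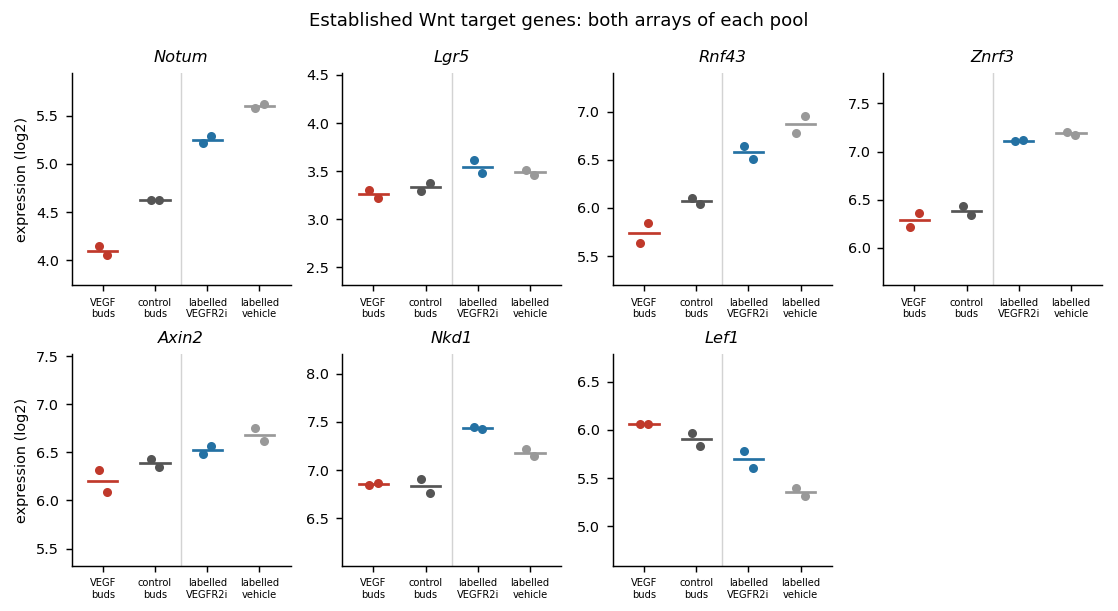
Expression on the log2 scale of the 7 measured target genes of the beta-catenin branch in all 4 pools. Points are the 2 arrays of a pool, bars their mean, and a grey line separates fresh buds from explants; Notum, Rnf43 and Axin2 are lower and Lef1 higher in the VEGF buds than in the control buds, and likewise in the pool labelled VEGFR2i than in that labelled vehicle, by less than 1.5-fold.

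In total the explant comparison gave 24 positive and 19 negative differences among the members, with a median of 0.03 beside 0.00 over all genes. The median size of a difference was 0.13, against 0.07 for all genes. The arrays did not overlap for 26 members, 15 higher and 11 lower, or 60.5%, against 51.0% of all genes (25.9% higher, 25.0% lower). Of genes with a mean level of at least 5 in 1 pool 61.4% did not overlap, and of the 34 members at that level 70.6%. The gap between these shares was not tested.

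A further 84 genes of the pathway, outside the member list, were examined by class. In the buds, 1 of them was called, or 1.19%, against 1.48% of all genes. It was Bmp4, a growth factor that Wnt signals can induce. Bmp4 read 7.13 and 7.07 in the VEGF pool and 6.37 and 6.14 in the control pool, a difference of 0.85 [0.70, 0.99], or 1.80-fold. Fgf9, a growth factor of the mesothelium and epithelium of several organs, lay just short with 0.56 [0.37, 0.75]. It passed, at 0.74, without the first control array. The part of the cell types in the Bmp4 and Fgf9 values was not tested. The largest differences in the remaining classes were those of the polarity cadherin Celsr2 (-0.47), the corepressor Tle2 (-0.35), the glypican Gpc4 (-0.33), Wls, which exports Wnt ligands (0.29), and the decoy Frzb (0.29). Frzb had mean levels below 5 in both bud pools.

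In the explants, 2 of the 84 were called, or 2.38%, against 2.19% of all genes, a share near the background. Sostdc1, a secreted inhibitor of Wnt and BMP signals, read 6.11 and 6.07 in the pool labelled VEGFR2i and 7.19 and 7.21 with vehicle, a difference of -1.11 [-1.14, -1.09], or 2.16-fold, and stood at 3.31 to 3.40 on the bud arrays. Acinar markers were likewise lower in the pool labelled VEGFR2i (median -0.91) and higher in explants than in buds, 9 of 9 with a median of 4.16. Their part in the Sostdc1 values was not tested. Daam2, a formin that acts downstream of Dishevelled, was the other gene and read 5.57 and 5.08 against 4.69 and 4.43, a difference of 0.76 [0.39, 1.14]. Its arrays within a pool were far apart, and without the first VEGFR2i array the difference was 0.52, short of the rule. Frzb differed by -0.56 [-0.75, -0.36] and passed the rule, at -0.75, without that same array. The largest differences of the other classes were Cd44 (0.50), Csnk1e (0.42), Adgra2 (0.35) and Wnt10b (-0.24). Of these, Cd44 and Wnt10b had mean levels below 5 in both explant pools.

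The largest spread of the members was between fresh buds and explants, which differ in genotype, age, 2 days of culture and possibly in normalization. These cannot be told apart, and the array medians of all probe sets were 4.08 to 4.12 in the buds and 4.29 to 4.33 in the explants. With the means of both explant pools set against those of both bud pools, and no overlap of the 4 arrays on each side, 13 members were at least 1.5-fold apart, 9 higher and 4 lower in the explants. That is 30.2% of the members, against 21.3% of all genes, where 17.8% were higher and 3.43% lower. Among genes with a mean level of at least 5 in 1 pool the share was 33.3%, and among the 34 members at that level it was 35.3%, which is near the background. The calls depend in part on the scaling. The median difference of all genes was 0.16 as deposited, 0.00 after quantile normalization of the 8 arrays together and -0.27 after centring each array on its median. With quantile normalization 7 members were higher and 9 lower, beside 9.81% and 6.83% of all genes. With centring 6 were higher and 12 lower, beside 7.53% and 11.3%.

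The 10 members with the same call under all 3 scalings were Wnt4, Lgr4, Fzd5, Fzd6, Sfrp5 and Notum, which were higher in explants, and Sfrp1, Wnt5a, Wnt5b and Rspo3, which were lower. The share of all genes with the same call under all 3 scalings was not computed. Wnt4, a ligand expressed in epithelia, was furthest up, with 4.71, 5.03, 4.90 and 4.85 on the bud arrays and 6.52, 6.54, 6.66 and 6.48 on the explant arrays, a difference of 1.68 as deposited and 1.24 to 1.35 under the other scalings. Its second probe set read 4.37 to 4.63 in the buds and 5.77 to 6.01 in the explants, the same direction. Neither Wnt4 probe set separated the pools within a pair: the differences of the second were -0.08 in both comparisons. Lgr4, the R-spondin receptor, was at 8.07 to 8.19 in the buds and 9.37 to 9.72 in the explants. Fzd5, a receptor of endodermal epithelia, was at 4.25 to 4.34 against 5.30 to 5.58, and Fzd6 at 7.10 to 7.36 against 8.26 to 8.35. Sfrp5, an inhibitor known from foregut endoderm, was at 3.14 to 3.24, near the floor of the arrays, in the buds and at 4.22 to 4.35 in the explants.

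On the lower side, Sfrp1 was at 10.68 to 10.79 in the buds and 8.85 to 9.41 in the explants, a difference of -1.60 as deposited. Wnt5a was at 8.34 to 8.61 against 7.17 to 7.65, a difference of -1.06. Wnt5b was at 5.71 to 5.92 against 5.15 to 5.34. The explant arrays of Rspo3 came within 0.01 of the lower control array: the explant pools had means of 5.22 and 5.06, against 5.37 in the control buds and 6.23 in the VEGF buds. Of the remaining members called as deposited, Rnf43 (0.82) and Znrf3 (0.81) lost the call under both other scalings and Dkk3 (0.99) under centring. All 9 epithelial markers were higher in explants, with a median of 1.61, and so were 9 of 9 acinar (median 4.16) and 8 of 10 endocrine markers (median 3.09). Endothelial (median -1.89) and erythroid markers (median -3.39) were lower, with 9 of 12 and 6 of 7 called. Their part in the values of the members was not tested. Lrp5, Lrp6, Ror1, Ror2 and Ctnnb1 differed by 0.01 to 0.13 as deposited, by -0.29 to -0.11 after quantile normalization and by -0.43 to -0.30 after centring, so that their sign depends on the scaling.

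**Figure D4:**
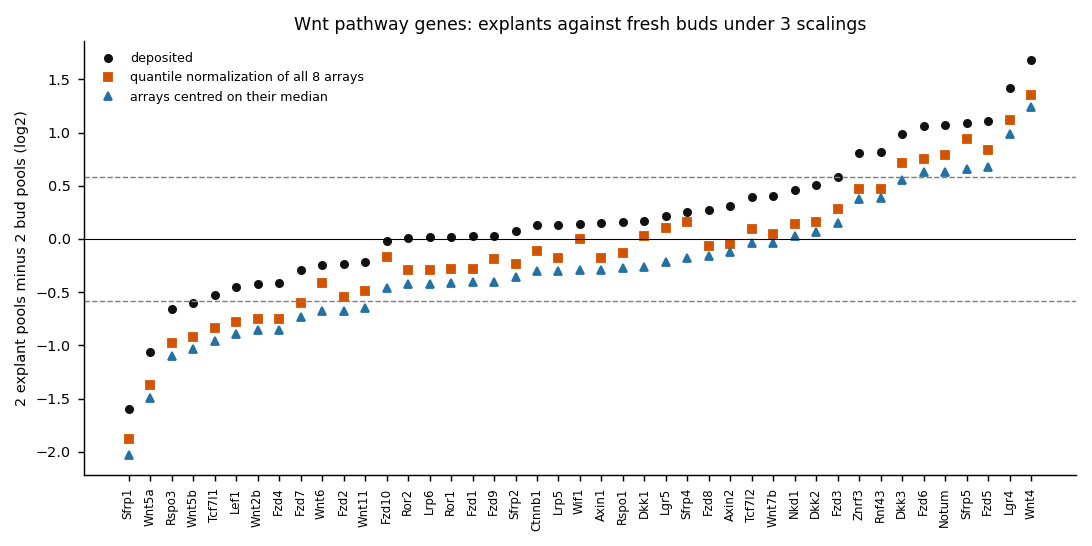
Difference of the 2 explant pools from the 2 bud pools on the log2 scale for each of the 43 Wnt pathway genes, ordered by the deposited value. Circles are deposited values, squares follow quantile normalization of the 8 arrays and triangles follow centring on array medians, with dashed lines at 1.5-fold; Sfrp1 at -1.60 and Wnt4 at 1.68 lie at the ends.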

How the data were processed

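RNA of 4 pools was measured on 8 arrays. The authors' deposited values are log2 levels of probe sets after RMA, made with Partek Genomic Suite 6.5 according to the design text; the range of the values shows the log2 scale. RMA sets arrays to a shared distribution and compresses differences of dim genes. The sources used here do not say whether buds and explants were normalized together.

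Of 35399 probe sets, 21789 had 1 symbol, 1621 had several and 11989 were not listed in the platform annotation. For 999 genes with more than 1 probe set, that with the highest mean was used. All 43 members matched RefSeq by Entrez ID, with unchanged symbols. Promoter sequences are RefSeq's, GRCm38.p6.

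Pool means were compared by the 1.5-fold rule (Python 3.11.15, pandas 2.3.3). Array values are given for members past that rule, for the established targets and for members past 1.3-fold. The alternatives were other probe set choices, sizes, a filter on dim genes, scalings, leaving out each array, limma 3.58.1 and the methods' t-test on arrays, which measure hybridization error. The size rule and limma were run on simulated arrays, with added differences past the 1.5-fold rule and noise between arrays only. That run cannot show how smaller differences or the spread between embryos would be handled. The number of arrays, 2 per pool, limits the precision. The members and lists were chosen with earlier results of these data known.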

Additional observations from a re-analysis of the deposited data

How the results depend on the processing

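Each count was recomputed under the alternatives. For members in the buds (1 as reported), 2-fold gave 0, 1.3-fold gave 5, and leaving out 1 array gave 1 to 2, the added gene being Wnt2b without the second VEGF array. For members in the explants (0), 1.3-fold gave 3, and leaving out 1 array gave 0 to 0. For the 84 other pathway genes, 2-fold gave 0 in the buds and 1 in the explants, 1.3-fold gave 3 and 8, and leaving out 1 array gave 1 to 2 and 2 to 2; without the first control array Fgf9 joined, and without the first VEGFR2i array Daam2 was lost and Frzb joined. On the arrays, the methods' t-test with 1.5-fold gave, for members, 1 in the buds and 0 in the explants at an unadjusted p under 0.05, and 0 and 0 after Benjamini-Hochberg adjustment. For the other genes it gave 1 and 1 unadjusted, and 0 and 0 adjusted. limma gave 1 and 0 for members, and 1 and 2 for the other genes. These alternatives describe hybridization error, not conditions. For explants against buds (13), the added sizes of 2-fold and 1.3-fold gave 8 and 21, and leaving out 1 array gave 12 to 14. The 21 at 1.3-fold are 48.8% of the members. Of the 34 members with a mean level of at least 5 in 1 pool 58.8% passed that size, against 50.8% of all genes at that level. The share of all genes at 2-fold was not computed for explants against buds. Over all genes, 2-fold gave 12 higher and 38 lower in the buds (110 and 186 as reported) and 123 and 10 in the explants (363 and 74), and 1.3-fold gave 348 and 422, and 672 and 248. For explants against buds, quantile normalization and centring gave 16 and 18 in total, but moved the members lower from 4 to 9 and 12, and all genes lower from 683 to 1362 and 2248. Otherwise the alternatives kept each total over members or other pathway genes within 1.5 times. Of 14 single differences, none changed sign in 112 recomputations. These genes were chosen for the size of their differences in these data, and their arrays did not overlap. Leaving out 1 array could thus not change a sign, and the recomputations do not test the direction. Dim probe sets, 9 members in all, limit what can be seen.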
